A study of Homo sapiens with 7 samples.

Results

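The cardiac myosin genes were read by name in a table of 23262 genes: the heavy chains MYH6, MYH7 and MYH7B and the light chains MYL2, MYL3, MYL4 and MYL7, 7 genes in all, each found in the table. Myosin is the motor of the heart's thick filament. A molecule holds a pair of heavy chains, which split ATP and pull on actin, and each heavy chain binds an essential and a regulatory light chain at its lever arm. MYH6 (alpha), the essential chain MYL4 and the regulatory chain MYL7 are the forms of the mature atrium. MYH7 (beta), MYL3 and MYL2 are those of the mature ventricle. Atrial and ventricular are used below as names of these genes and do not give the chamber type of the cells. MYL4 is also made in the fetal ventricle. MYH7B is a further slow-type heavy chain gene.

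The libraries are RNA-seq of 1 human embryonic stem cell (hESC) line, labelled H3, with a pair of fluorescent reporters: eGFP for NKX2-5, which encodes a regulator of heart progenitors, and mCherry for alpha-MHC, the protein of MYH6. Cells on the way to heart muscle were sorted on day 3 into CD13+/ROR2+ (labelled mesoderm progenitor) and CD13-/ROR2- (labelled endoderm progenitor), on day 7 into NKX2-5+ (labelled cardiac progenitor) and NKX2-5- (labelled unknown), and on day 14 into aMHC+ (labelled cardiomyocytes) and aMHC- (labelled unknown). All day 7 and day 14 fractions are also labelled CD13+/ROR2+, and both day 14 fractions NKX2-5+, so aMHC- is not the later form of NKX2-5-. Undifferentiated hESC on day 0 completed the set of 7 groups, with 1 library each, so no difference has a replicate check and none was tested. Levels are FPKM, fragments scaled by transcript length and library total, so that genes can be compared within a library.

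The line carried the reporters in every group, hESC included; its label counts the number after NKX2 up from library to library, and it was read as the same line throughout. Each library is bulk RNA of sorted cells. In such samples, fewer cells of a type and less RNA per cell cannot be told apart. The labels give over 12000000 reads per library, and deposited sums ran between 108220 and 414781 FPKM, with a single small RNA gene at 51.6% of the sum of day 7 NKX2-5-. Day 7 NKX2-5+ had 9699 genes at 1 FPKM or above, and the other libraries 10656 to 10830. Of 8 heart muscle markers, 8 were at 5 FPKM or more in day 7 NKX2-5+, 7 in day 7 NKX2-5-, 8 in day 14 aMHC+ and 7 in day 14 aMHC-. One of these markers, TNNI3, was also at 11.4 FPKM in hESC. Skeletal muscle regulators MYOD1 and MYOG were at 0 in every day 7 and day 14 library.

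Promoter sequences were at hand for 3 of the 7 genes, MYH6, MYL7 and MYL3. All of these stood above 5 FPKM in every day 7 and day 14 library, MYL3 at only 5.73 in day 7 NKX2-5-. They are shown so that the letters before the start of these genes can be read beside the levels, 250 bases each from RefSeq (build GRCh38.p14, minus strand, printed 5′ to 3′ toward the gene), at chr14:23408274-23408523, chr7:44141333-44141582 and chr3:46861685-46861934. For MYL3, which has 2 start windows, the one nearer the start codon was taken. Capitals mark matches to 7 motifs searched on both strands.
MYH6: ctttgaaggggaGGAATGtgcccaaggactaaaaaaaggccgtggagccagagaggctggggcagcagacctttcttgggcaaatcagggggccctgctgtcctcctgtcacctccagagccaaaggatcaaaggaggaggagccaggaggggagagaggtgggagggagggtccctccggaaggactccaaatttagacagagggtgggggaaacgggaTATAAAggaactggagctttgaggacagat
MYL7: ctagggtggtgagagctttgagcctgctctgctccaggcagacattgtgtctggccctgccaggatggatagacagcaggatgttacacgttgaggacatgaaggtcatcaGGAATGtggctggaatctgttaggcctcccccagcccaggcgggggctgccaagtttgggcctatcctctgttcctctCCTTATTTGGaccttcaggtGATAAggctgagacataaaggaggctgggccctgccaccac
MYL3: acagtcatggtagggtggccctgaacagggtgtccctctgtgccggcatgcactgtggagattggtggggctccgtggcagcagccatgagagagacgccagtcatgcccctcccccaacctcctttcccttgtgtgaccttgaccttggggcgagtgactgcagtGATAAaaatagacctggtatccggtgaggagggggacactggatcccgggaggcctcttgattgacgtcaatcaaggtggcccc

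The motifs were the M-CAT element CATTCC bound by TEAD factors, the GATA factor motif GATAA, the NKX2-5 core AAGTG, the T-box core GGTGTG, the TATA box TATAAA, the SRF element CArG box and the MEF2 site. In MYH6 an M-CAT match, read as GGAATG on this strand, began 238 bases before the start and a TATA box 30 bases before it. In MYL7 an M-CAT match began 139 bases before the start, a CArG box, which reads as a match on both strands, 61 bases before it and a GATA match 41 bases before it. The MYL3 window held 1 match, GATA, 84 bases before the start. Among 35116 windows of the same length, 11.9% held M-CAT, 20.4% GATA, 10.7% the TATA box and 1.16% a CArG box. The NKX2-5 core (37.6% of windows), the T-box core (14.2%) and the MEF2 site (2.80%) were not among the letters of the 3 windows. M-CAT and GATA each stood in 2 of the 3, and no motif stood in all of them.

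The 3 heavy chain genes also carry microRNA genes in introns, on the strand of the host and clear of annotated exons. MIR208A lies in MYH6, MIR208B in MYH7 and MIR499A in MYH7B. One mature form of each is printed because the genes are part of the same loci, with the seed (bases 2 to 8) in capitals. They lie at chr14:23388602-23388623 (minus strand), chr14:23417997-23418018 (minus) and chr20:34990408-34990428 (plus) in RefSeq GRCh38.p14.
hsa-miR-208a-3p: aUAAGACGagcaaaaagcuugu
hsa-miR-208b-3p: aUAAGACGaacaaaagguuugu
hsa-miR-499a-5p: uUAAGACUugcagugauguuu

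The first and second share the seed UAAGACG, and the third has UAAGACU. All of these microRNA genes, and MIR499B on the other strand of MYH7B, were listed at 0 FPKM in all 7 libraries, including those where the host MYH6 stood above 100. These are gene-level values of an mRNA kit, and the mature microRNAs were not measured.

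MYH6 was the abundant heavy chain wherever the heavy chains were present. It stood at 0.0169 FPKM in hESC, 0.0774 in day 3 CD13+/ROR2+, 0.116 in day 3 CD13-/ROR2-, 531 in day 7 NKX2-5+, 43.4 in day 7 NKX2-5-, 342 in day 14 aMHC+ and 136 in day 14 aMHC-. Only the 4 later libraries held more than traces, with the reporter-positive fraction above the negative one on both days. At 12000000 mapped reads, the day 3 values of MYH6 would correspond to 5.52 reads in CD13+/ROR2+ and 8.24 in CD13-/ROR2-. Among all genes but small RNA and histone genes, MYH6 was in place 15 by FPKM in day 7 NKX2-5+ and in place 81 in day 14 aMHC+.

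MYH7 was at 0.0163 FPKM in hESC, 0.0631 in day 3 CD13+/ROR2+, 0.0249 in day 3 CD13-/ROR2-, 14.5 in day 7 NKX2-5+, 2.75 in day 7 NKX2-5-, 50.5 in day 14 aMHC+ and 10.2 in day 14 aMHC-. Its level was highest in the day 14 cardiomyocytes, unlike that of MYH6, which was highest on day 7. MYH7B was at 0.0194 FPKM in hESC, 0.0205 in day 3 CD13+/ROR2+, 0.0302 in day 3 CD13-/ROR2-, 3.01 in day 7 NKX2-5+, 0.124 in day 7 NKX2-5-, 2.33 in day 14 aMHC+ and 0.216 in day 14 aMHC-. MYH7B stayed under 5 FPKM throughout and was over 1 FPKM in the 2 reporter-positive libraries alone. TRPC4AP, which overlaps MYH7B on the opposite strand, stood at 4.08 to 9.83 FPKM (6.74 in hESC, where MYH7B was at 0.0194). The kit does not mark strand. Of the 6244 windows of 50 bases, the read length, in the MYH7B transcript, 0 occurred in another gene on either strand.

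Among the light chains MYL4 and MYL7 were above 5 FPKM on day 3, in CD13+/ROR2+ alone. MYL4 was listed at 0 in hESC and stood at 17.3 FPKM in day 3 CD13+/ROR2+, 0.322 in day 3 CD13-/ROR2-, 1169 in day 7 NKX2-5+, 223 in day 7 NKX2-5-, 808 in day 14 aMHC+ and 481 in day 14 aMHC-. MYL7 was also listed at 0 in hESC, with 7.29 FPKM in day 3 CD13+/ROR2+, 1.47 in day 3 CD13-/ROR2-, 1011 in day 7 NKX2-5+, 339 in day 7 NKX2-5-, 3082 in day 14 aMHC+ and 980.2 in day 14 aMHC-. In day 14 aMHC+ MYL7 was in place 1 of all genes outside small RNA and histone genes. On day 7 the atrial essential chain MYL4 was the higher of the pair in NKX2-5+ and MYL7 in NKX2-5-, and on day 14 MYL7 was the higher in both fractions.

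MYL3, the ventricular essential chain, was listed at 0 in hESC and stood at 0.141 FPKM in day 3 CD13+/ROR2+, 1.36 in day 3 CD13-/ROR2-, 262 in day 7 NKX2-5+, 5.73 in day 7 NKX2-5-, 222 in day 14 aMHC+ and 38.3 in day 14 aMHC-. It was thus abundant in both reporter-positive libraries and low in day 7 NKX2-5-. MYL2, the ventricular regulatory chain and a marker of mature ventricular muscle, was listed at 0 in hESC, in both day 3 libraries and in day 7 NKX2-5-, and stood at 0.467 FPKM in day 7 NKX2-5+, 1.83 in day 14 aMHC+ and 0.0475 in day 14 aMHC-. None of these reaches 5 FPKM. At 12000000 mapped reads the MYL2 values would correspond to 4.52 reads in day 7 NKX2-5+ and 17.7 in day 14 aMHC+, so the order of the low libraries rests on few reads.

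**Figure D1:**
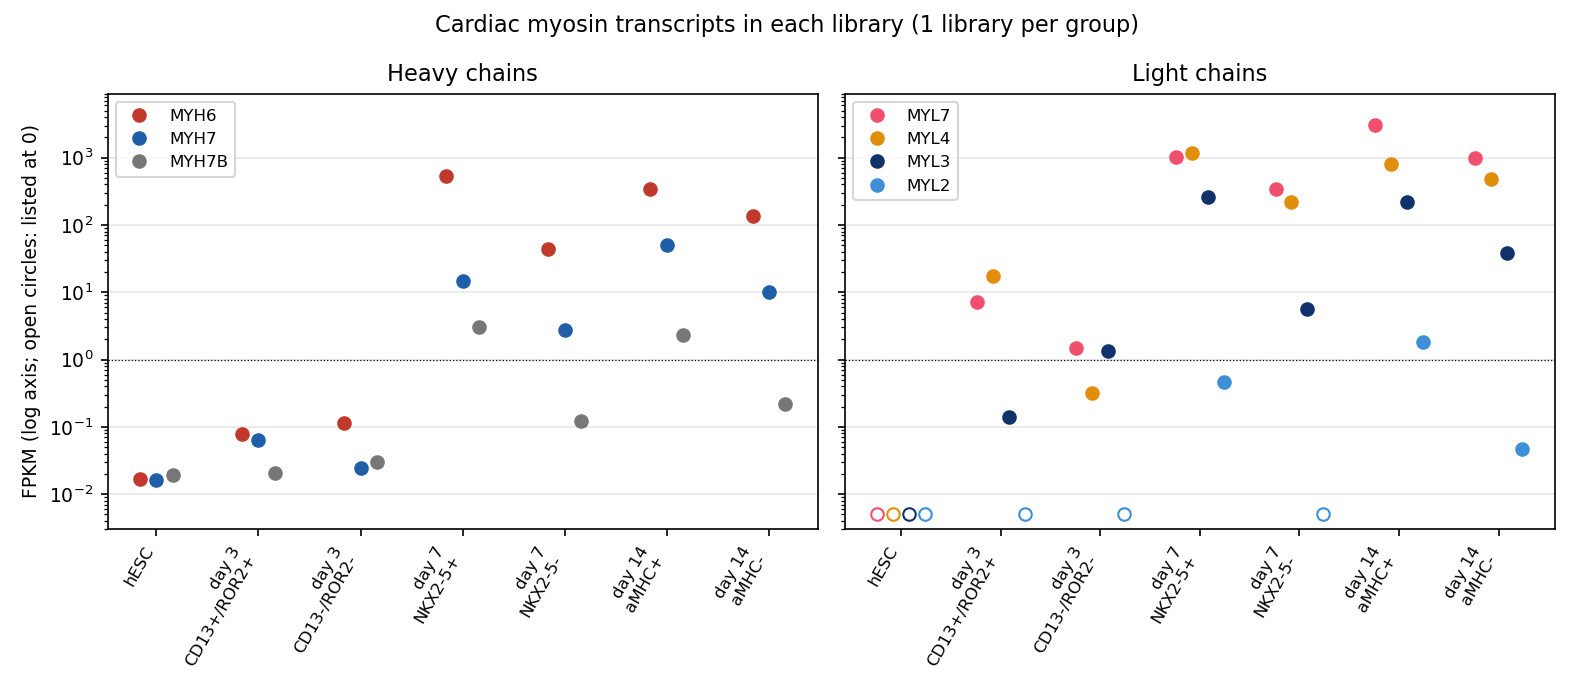
FPKM (log axis) of the 3 heavy chain genes (left) and the 4 light chain genes (right) in each of the 7 libraries, 1 point per gene and library. Open circles at the foot are genes listed at 0, and the dotted line marks 1 FPKM. MYL4 and MYL7 already stand above 1 FPKM in day 3 CD13+/ROR2+, where MYH6 is at 0.0774, and MYL2 passes 1 FPKM in day 14 aMHC+ alone.

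Between 2 libraries, a call required log2 of (FPKM + 1) over (FPKM + 1) to reach 2 in size, a 4-fold ratio, and the larger of both values to reach 5 FPKM. Several of the 7 comparisons use the same library, such as day 7 NKX2-5+, so they are not independent. A gene near 0 in the lower library that reaches the minimum in the other is called in any case, so the filter fixes such a call. MYL2 and MYH7B never had 5 FPKM as deposited and could not be called in any comparison of deposited values. Folds divide FPKM by FPKM with nothing added, and none is given against a value listed at 0.

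The day 3 comparison asks whether the sort on CD13 and ROR2 separates cells with myosin transcripts. MYL4, at 17.3 FPKM in CD13+/ROR2+ against 0.322 in CD13-/ROR2- (53.8-fold, log2 ratio 3.79), was the 1 member called higher, while 3.69% of the 5875 genes tested were called higher and 2.54% lower. MYL7, at 7.29 against 1.47 FPKM (4.97-fold), had a log2 ratio of 1.75 and was not called, though it was with a pseudocount of 0.1. The ventricular essential chain MYL3 lay the other way, at 0.141 FPKM in CD13+/ROR2+ against 1.36 in CD13-/ROR2-, under the minimum. The heavy chains gave no contrast at these levels, with MYH6 at 0.0774 against 0.116 FPKM. Of 24 genes of the thick and thin filament, 2 reached 5 FPKM and were tested, and 0 of these 2 were called. Cardiac actin ACTC1 was at 5.67 against 2.03 FPKM, troponin T gene TNNT2 at 3.48 against 1.03 and tropomyosin TPM1 at 42.0 against 89.9. The cardiac SRF coactivator gene MYOCD was at 5.10 against 0.261 FPKM and MYLK3, the cardiac kinase of regulatory light chains, at 1.82 against 0.147.

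In the step to day 7 NKX2-5+ from day 3 CD13+/ROR2+, all 5 members that reached 5 FPKM were called higher, where 4.38% of 5633 genes were called higher and 9.09% lower. MYH6, MYH7 and MYL3 were near 0 on day 3 and passed the minimum through day 7 alone, so the filter fixed their calls. MYL4 and MYL7, at 17.3 and 7.29 FPKM in day 3 CD13+/ROR2+, were not bound to be called. MYH6 was at 531 FPKM in day 7 NKX2-5+ against 0.0774 in day 3 CD13+/ROR2+ and MYL3 at 262 against 0.141, where the day 3 values would correspond to 5.52 and 1.71 reads at 12000000. MYL7 was 139-fold higher and MYL4 67.4-fold higher. The log2 ratios of the 5 were 8.95 for MYH6, 7.85 for MYL3, 6.93 for MYL7, 6.00 for MYL4 and 3.87 for MYH7 (14.5 FPKM in day 7 NKX2-5+ against 0.0631 in day 3 CD13+/ROR2+). Median-ratio scaling, which moves all genes of this comparison by 0.69 on the log2 scale, left the 5 calls in place. Of the 24 filament partners, 15 were tested and 15 were higher as well, with a median log2 ratio over all 24 of 3.93, against -0.77 over all genes tested. The tested partners near 0 on day 3, such as MYBPC3, CSRP3 and LDB3, were likewise bound to be called. The 8 pluripotency markers summed to 12.4 FPKM in day 7 NKX2-5+ against 318 in day 3 CD13+/ROR2+ (6 of 6 tested lower), and the 8 smooth muscle markers to 514 against 9.52 (4 of 4 tested higher). Most of the 514 was ACTA2, at 456 FPKM, while MYH11 was at 0.678 and MYLK at 0.663 in day 7 NKX2-5+. The part of such cells in the myosin ratios was not tested.

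The day 7 comparison asks how cells with and without the NKX2-5 reporter differ. NKX2-5 itself was at 70.2 FPKM in NKX2-5+ and 1.18 in NKX2-5-. Of the 5 myosin genes tested, 4 were called higher in NKX2-5+ and 0 lower, while 2.03% of 4981 genes were called higher and 5.42% lower. MYL3 was 45.8-fold higher (262 against 5.73 FPKM), MYH6 12.3-fold (531 against 43.4), MYH7 5.27-fold (14.5 against 2.75) and MYL4 5.24-fold (1169 against 223). MYL7 was 2.98-fold higher (1011 against 339 FPKM) and fell short at a log2 ratio of 1.57, but reached 2.01 after median-ratio scaling, which moves the genes of this pair by 0.43. MYH7B was at 3.01 against 0.124 FPKM and MYL2 at 0.467 FPKM against a listed 0. The light chains thus spread widely, from 2.98-fold for the atrial regulatory chain to 45.8-fold for the ventricular essential chain.

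Genes of the surrounding filaments were described by the same rule. Of the 15 filament partners tested, 10 were called higher in NKX2-5+ and 0 lower (median log2 ratio of all 24 on the list 1.62, against -0.47 over all genes tested), and with a pseudocount of 5 this was 6. The Z-disc gene LDB3 was at 95.2 FPKM in NKX2-5+ against 3.83 in NKX2-5-, the Z-disc protein gene TCAP at 8.00 against 0.124, cardiac myosin-binding protein C (MYBPC3) at 51.2 against 5.43 and troponin C (TNNC1) at 388 against 49.6. Tropomyosin TPM1, which other cell types also make, was not called, at 1489 against 1963 FPKM. Of the genes for myosin kinases, phosphatase and chaperones, 3 of 6 tested were higher. These were SMYD1, a muscle methyltransferase that acts in myosin assembly (79.6 against 6.57 FPKM), the phosphatase subunit PPP1R12B (65.7 against 12.1) and the myosin chaperone UNC45B (15.4 against 3.01).

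Markers of fibroblasts, hepatic endoderm and endothelium lay in the other direction in this pair, while those of smooth and skeletal muscle did not do so as a list. Of 8 fibroblast markers tested, 7 were lower in NKX2-5+, and the 9 on the list summed to 64.8 FPKM in NKX2-5+ against 798 in NKX2-5-. Of 7 hepatic endoderm markers tested, 6 were lower, with the 8 on the list at a sum of 67.5 against 385 FPKM, and the 8 endothelial markers summed to 11.7 against 54.1. None of these markers was at 0 in either library. The 8 smooth muscle markers, among them MYH11 at 0.678 against 1.37 FPKM, summed to 514 in NKX2-5+ against 616 in NKX2-5-. TAGLN was called lower (21.1 against 144 FPKM) and ACTA2 was not called (456 against 421). The 10 skeletal muscle markers lay the same way as the myosins, with a sum of 81.3 in NKX2-5+ against 5.89 in NKX2-5-. CKM was called higher there (75.7 against 1.25 FPKM) and ACTA1 was not (5.49 against 4.06). The part of these other cells in the myosin ratios was not tested.

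The day 14 comparison is between fractions sorted on the alpha-MHC reporter, so MYH6 here reads the gate more than it tests anything. It was 2.52-fold higher in aMHC+ (342 FPKM against 136 in aMHC-) and was not called. Of the 5 members tested, 2 were called higher and 0 lower, where 0.648% of 5712 genes were called higher and 0.35% lower. Both were ventricular forms, MYL3 (222 against 38.3 FPKM, 5.80-fold) and MYH7 (50.5 against 10.2, 4.94-fold), though with a pseudocount of 5 only 1 remained. The atrial forms MYL7 and MYL4 were 3.14-fold and 1.68-fold higher. Under the minimum, MYH7B was at 2.33 FPKM in aMHC+ against 0.216 in aMHC- and MYL2 at 1.83 against 0.0475. All 7 members had the higher value in aMHC+, and the median log2 ratio of all genes tested was -0.24.

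Among the filament partners 1 of 15 was called higher and 0 lower (median log2 ratio of all 24 on the list 1.04). It was the adult cardiac troponin I gene TNNI3, at 32.7 FPKM in aMHC+ against 7.01 in aMHC-, with 11.4 in hESC. The giant spring protein gene TTN was next, at 116 against 33.9 FPKM, and was not called. The fibroblast markers summed to 376 FPKM in aMHC+ and 758 in aMHC-, and the smooth muscle markers to 863 and 979, with none of either list at 0. Their part in the myosin ratios was not tested.

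**Figure D2:**
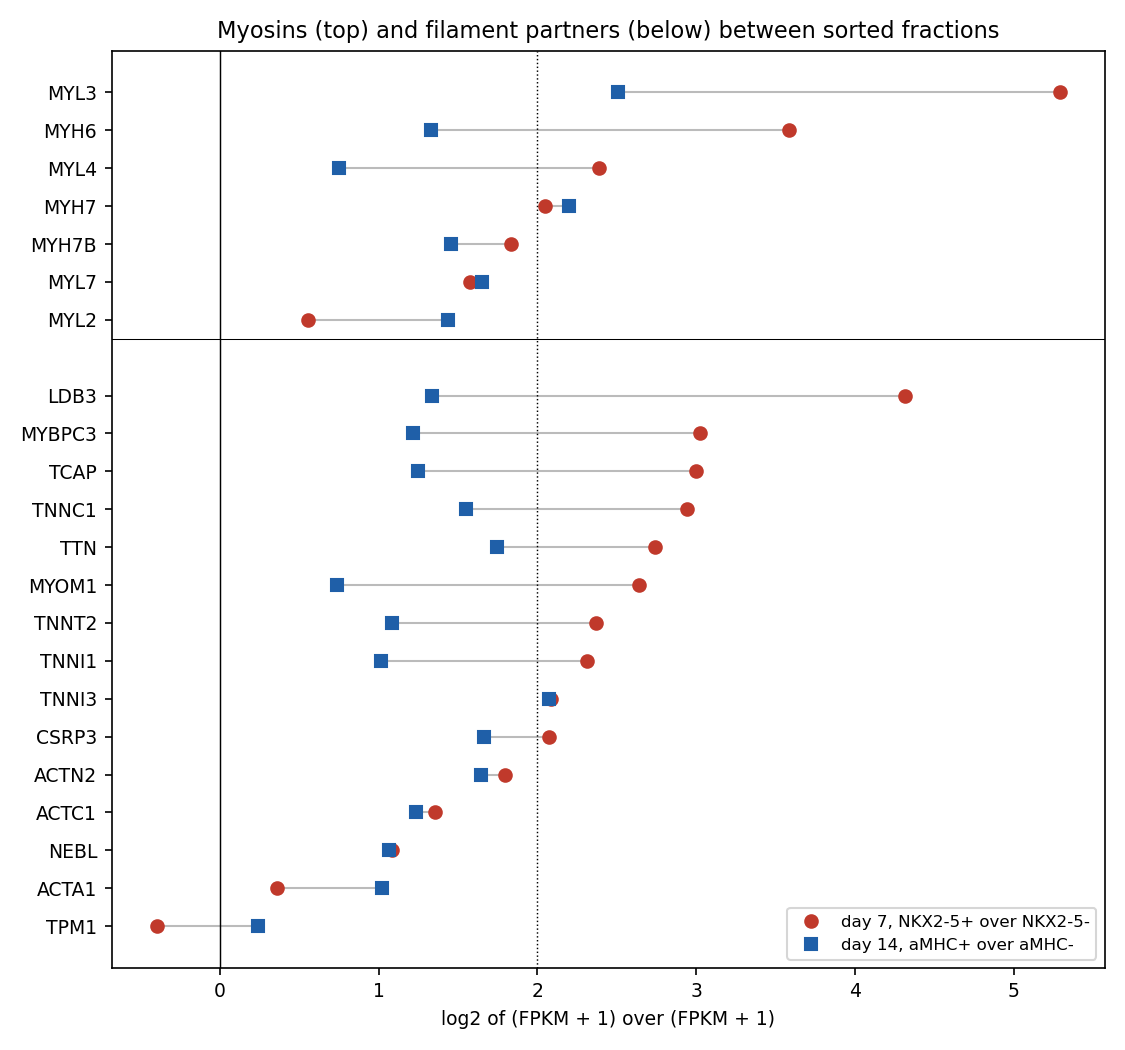
log2 of (FPKM + 1) in the reporter-positive over the reporter-negative library for the 7 myosin genes (top) and the 15 filament partners with at least 5 FPKM in these libraries, as circles for day 7 and squares for day 14. The dotted line marks the 4-fold rule. MYL3 lies beyond it on both days and MYH7 too, whereas MYH6 and MYL4 lie beyond it on day 7 alone.

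Set against day 7 NKX2-5+, day 14 aMHC+ had 0 of 5 members called, where 7.68% of 5310 genes were called higher and 0.829% lower. The members split. MYH7 was 3.48-fold and MYL7 3.05-fold higher in day 14 aMHC+, while MYH6 was at 0.644 times, MYL4 at 0.692 times and MYL3 at 0.847 times the day 7 level. The genes tested had a median log2 ratio of 0.73, and median-ratio scaling shifts this comparison by 0.61, after which MYH7 was at 1.15 and MYL7 at 0.99, and MYH6 at -1.25, MYL4 at -1.15 and MYL3 at -0.85. The signs of these 5 genes were the same under the 3 scalings tried. MYL2, at 1.83 FPKM in day 14 aMHC+ against 0.467 in day 7 NKX2-5+, had a log2 ratio of 0.95. Of the fibroblast markers, 3 of 6 tested were higher in day 14 aMHC+, with a sum of 376 FPKM against 64.8 in day 7 NKX2-5+, and of the smooth muscle markers 4 of 7, with 863 against 514. The hepatic endoderm markers summed to 4.98 against 67.5 FPKM (2 of 2 tested lower), with APOA2, APOC3, TTR and FGB at 0 in day 14 aMHC+. The part of such cells in the myosin ratios was not tested.

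Of the 15 filament partners tested in that comparison, 1 was called higher, skeletal actin ACTA1, at 570.4 FPKM in day 14 aMHC+ against 5.49 in day 7 NKX2-5+; the median log2 ratio of all 24 was -0.01. NEBL, which encodes a Z-disc protein, was at 19.1 against 65.3 FPKM, a log2 ratio of -1.72 that was not called as deposited but was after median-ratio scaling (-2.33). ACTA1 is made in the fetal heart as well as in skeletal muscle. It is a close paralog of ACTC1 and may share reads with it, which was not tested. ACTC1 was at 902 FPKM in day 14 aMHC+ against 1189 in day 7 NKX2-5+. The 10 skeletal muscle markers summed to 602 FPKM in day 14 aMHC+ against 81.3 in day 7 NKX2-5+, with ACTA1 and CKM (29.9 against 75.7) the 2 above 5 FPKM. Between day 14 aMHC- and day 7 NKX2-5-, MYL3 was the 1 member called higher, at 38.3 against 5.73 FPKM (6.69-fold), where 3.58% of 6006 genes were called higher and 1.65% lower. Without small RNA and histone genes at equal sums 0 members were called. MYH6 was 3.13-fold, MYH7 3.71-fold, MYL7 2.89-fold and MYL4 2.16-fold higher there. In this pair the hepatic endoderm markers summed to 3.30 FPKM in day 14 aMHC- against 385 in day 7 NKX2-5- (7 of 7 tested lower, APOC3 and TTR at 0 in day 14 aMHC-) and the endothelial markers to 9.28 against 54.1 (3 of 5 lower, PECAM1 at 0). The fibroblast markers summed to 758 against 798 FPKM, with 1 of 9 higher and 2 lower, and the smooth muscle markers to 979 against 616, with 0 of 7 called. ACTA1 was at 281 against 4.06 FPKM. The part of these cells in the myosin ratios was not tested.

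**Figure D3:**
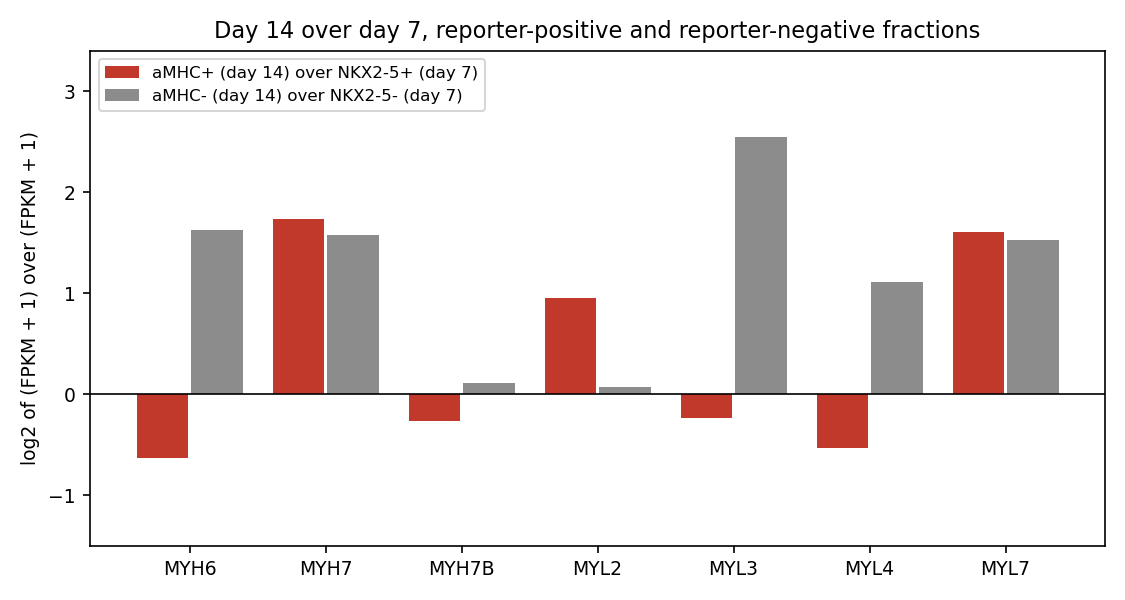
log2 of (FPKM + 1) on day 14 over (FPKM + 1) on day 7 for each myosin gene, as deposited, for the reporter-positive libraries (left bar of each pair) and the reporter-negative ones (right bar). MYH7 and MYL7 are above 0 in both, whereas MYH6, MYL3 and MYL4 are below 0 in the positive and above 0 in the negative libraries.

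Against hESC, day 14 aMHC+ had 5 of 5 tested members called higher, where 8.76% of 6382 genes were called higher and 6.57% lower. All 5 were at or near 0 in hESC and passed the minimum through day 14 aMHC+ alone, so the filter fixed these calls. Without genes listed at 0 in either library 2 of them remained, MYH6 and MYH7, because MYL3, MYL4 and MYL7 were listed at 0 in hESC.

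The balance of atrial and ventricular forms was read within each library, where it does not depend on library scaling. MYH6 made up 97.3% of the sum of MYH6 and MYH7 in day 7 NKX2-5+, 94.0% in day 7 NKX2-5-, 87.1% in day 14 aMHC+ and 93.0% in day 14 aMHC-. The beta share was thus 12.9% in day 14 aMHC+ against 2.66% in day 7 NKX2-5+. MYL4 made up 81.7% of the sum of MYL4 and MYL3 in day 7 NKX2-5+, 97.5% in day 7 NKX2-5-, 78.5% in day 14 aMHC+ and 92.6% in day 14 aMHC-. For the essential chains the split followed the fractions more than the days, with a MYL3 share of 18.3% and 21.5% in the reporter-positive libraries of day 7 and day 14, and 2.51% and 7.37% in the negative ones.

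For the regulatory chains the atrial form was nearly everything. The MYL2 share of MYL7 and MYL2 was 0.0461% in day 7 NKX2-5+, 0.0593% in day 14 aMHC+ and 0.00485% in day 14 aMHC-, and MYL2 was listed at 0 in day 7 NKX2-5-. The 3 pairs therefore gave different pictures of the same libraries, with the ventricular form between 0.0593% and 21.5% of its pair in day 14 aMHC+. Over the 6 genes together, the atrial forms held 90.7% of the FPKM in day 7 NKX2-5+, 98.6% in day 7 NKX2-5-, 93.9% in day 14 aMHC+ and 97.0% in day 14 aMHC-.

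**Figure D4:**
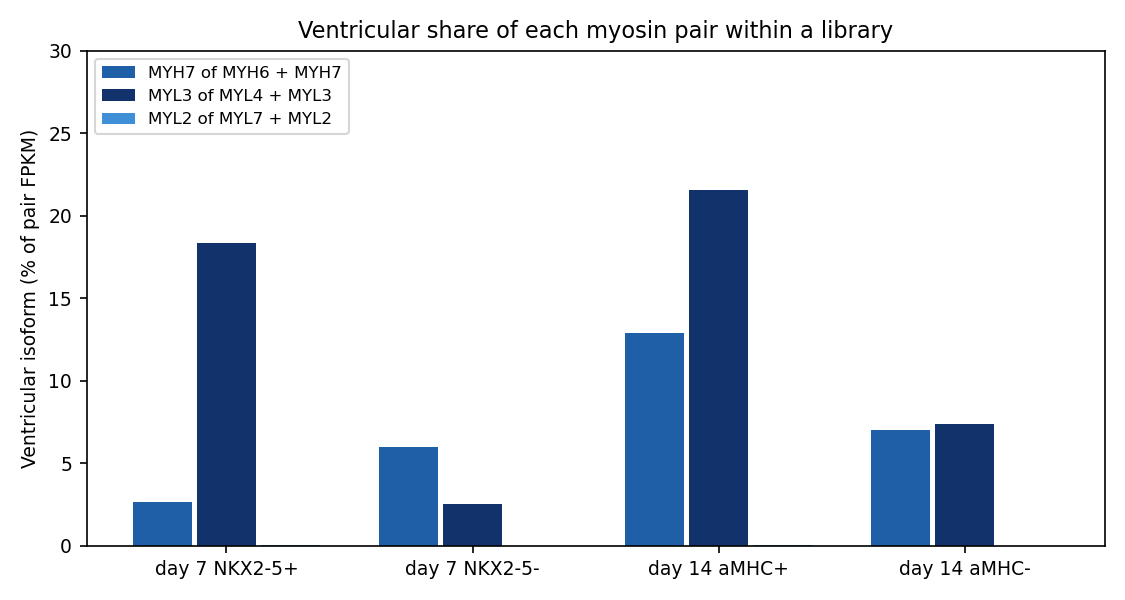
Ventricular isoform as a percentage of the FPKM of its pair in the 4 later libraries: MYH7 of MYH6 and MYH7, MYL3 of MYL4 and MYL3, MYL2 of MYL7 and MYL2, 1 library per bar. The MYL3 bars are tall in the reporter-positive libraries, the MYH7 bar reaches 12.9% in day 14 aMHC+, and the MYL2 bars are under 0.1% or absent.

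On the FPKM scale, which is per length, light chain levels exceeded heavy chain levels. The sum of MYL3 and MYL4 was 2.62 times the sum of MYH6 and MYH7 in day 7 NKX2-5+, 4.96 times in day 7 NKX2-5-, 2.62 times in day 14 aMHC+ and 3.56 times in day 14 aMHC-. The regulatory chains MYL2 and MYL7 were at 1.85, 7.35, 7.85 and 6.72 times the heavy chains in the same 4 libraries. Essential chain transcripts thus kept the same ratio to heavy chains in both reporter-positive libraries, while that of the regulatory chains, which is nearly all MYL7, was low in day 7 NKX2-5+ alone.

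MYH6 and MYH7 lie side by side on chromosome 14 and are alike enough to share reads. Of the 5892 windows of 50 bases, the read length in the labels, in the MYH6 transcript (5941 bases, GENCODE), 14.8% occurred unchanged in MYH7 and 45.8% with at most 2 mismatches. In the other direction 14.5% of 6038 MYH7 windows were identical in MYH6. The level of MYH7 was 2.73% of that of MYH6 in day 7 NKX2-5+, 6.35% in day 7 NKX2-5-, 14.8% in day 14 aMHC+ and 7.54% in day 14 aMHC-, a 5.41-fold range. How the authors' counting placed such reads is not given in the sources used here, and the part of MYH6 reads in the MYH7 values was not tested. An antisense gene, AL132855.1, is annotated on the strand opposite MYH7, and its reads cannot be told from those of MYH7 with this kit. For MYH7B and the 4 light chains, 0 windows of 50 bases occurred in a transcript of another gene, so the light chain shares carry no such limit. PTH1R, which overlaps MYL3 on the opposite strand, was at most 6.65 FPKM, in day 7 NKX2-5-, where MYL3 was at 5.73.

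**Figure D5:**
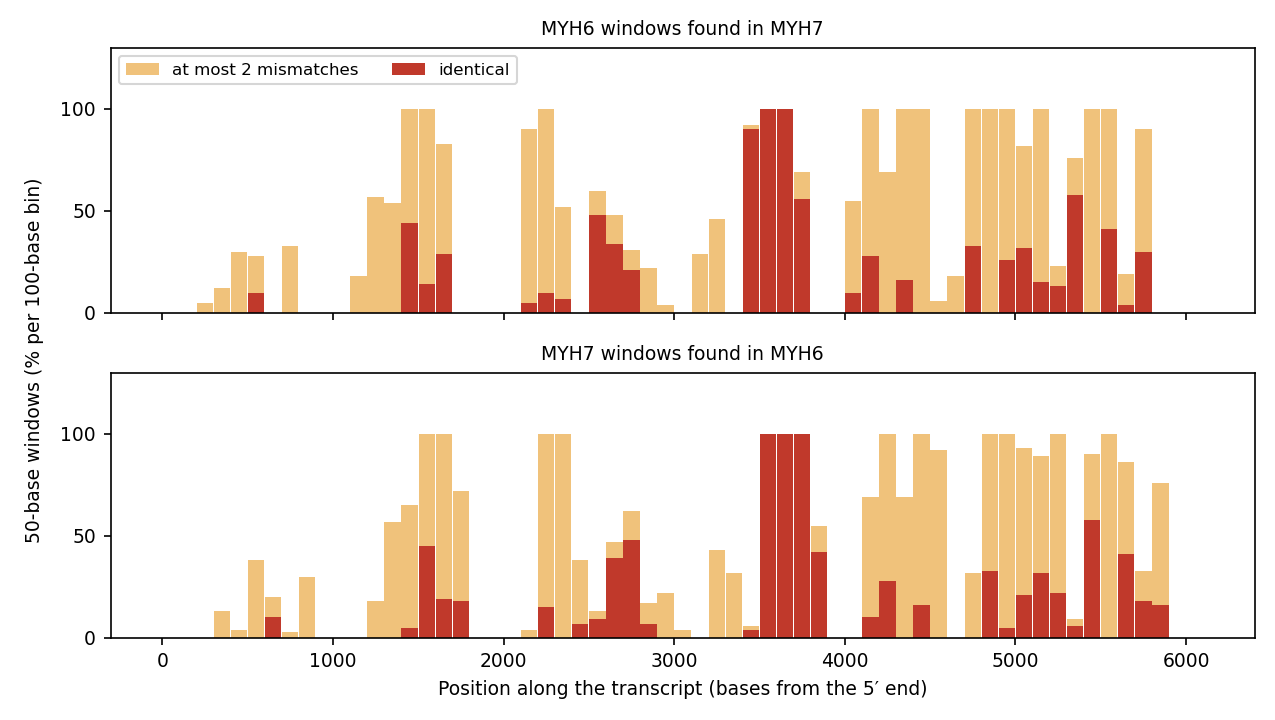
Share of 50-base windows in each 100-base bin of the MYH6 transcript that occur in MYH7 (top) and of the MYH7 transcript that occur in MYH6 (bottom), identical (dark) or with at most 2 mismatches (light). Positions count from the 5′ end of the transcript. Identical windows fill whole bins past the middle of both transcripts and are rare near the 5′ end.

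Genes whose pattern was most like that of a member were sought among 7500 genes of at least 5 FPKM in some library, by Pearson r of log2(FPKM + 1) over the 7 libraries, as a description. For MYH6 these were XIRP1, an actin-binding protein gene of heart muscle (r = 0.998), TNNI1 (0.997), the calcium pump inhibitor phospholamban PLN (0.996), CPEB4 (0.995) and BVES (0.994). For MYH7 they were CSRP3, a muscle LIM protein gene (0.997), RRAD (0.994), FAM174A (0.989), NPPA (0.986) and ITGB1BP2 (0.986). For MYL4 MYOCD led (0.999), for MYL7 TNNT2 (0.994), for MYL3 LDB3 (0.994) and for MYL2 C1orf105 (0.954). The points share a step between the early and the later libraries, and its part in each r was not measured. Of the 30 places so filled, 17 were filled by the same genes after median-ratio scaling, 3 by Spearman's rho and 0 over the 4 later libraries alone.

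Among the members, MYL4 and MYL7 were most alike (r = 0.980) and MYL2 and MYL4 least (0.560). MYL7 was in place 10 of the genes most like MYL4, and MYH7 in place 112 of those most like MYH6, over the 7 libraries. The atrial pairs had r of 0.947 (MYH6 and MYL4), 0.968 (MYH6 and MYL7) and 0.980, and the ventricular pairs 0.961 (MYH7 and MYL3), 0.826 (MYH7 and MYL2) and 0.756 (MYL3 and MYL2), while MYL3 and MYH6 had 0.960.

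Lists of other genes, named atrial and ventricular here, were read by the same rule. The names do not mean that each gene is made in that chamber alone. Of 6 atrial genes tested on day 7, 1 was higher in NKX2-5+ and 2 lower, where 2.03% of all genes tested were higher and 5.42% lower. NPPA, the atrial natriuretic peptide gene, was at 146 FPKM in NKX2-5+ against 3.07 in NKX2-5-, while the calcium pump regulator SLN was at 2.39 against 24.8 and TBX18 at 0.754 against 18.6. Of 7 ventricular genes 1 was higher and 0 lower, the ventricular transcription factor gene IRX4, at 15.2 against 0.187 FPKM; 2 were higher after median-ratio scaling and 0 with a pseudocount of 5. IRX4 was at 0.478 FPKM in day 14 aMHC+ and at 0 in day 14 aMHC-, and HEY2, a ventricular repressor of atrial genes, at 0.159 and 0.457. On the same list, NPPB was at 1413 and 978 FPKM in these libraries, HAND2 at 56.7 and 76.5 and LBH at 45.9 and 58.3. In day 14 aMHC+ over day 7 NKX2-5+, 1 of 7 ventricular genes tested was higher, NPPB, and 3 were lower, IRX4, TBX20 and HAND1. Of all genes tested there, 7.68% were higher and 0.829% lower. NPPA was at 514 FPKM in day 14 aMHC+ against 68.5 in aMHC-, called higher, as 1 of 2 atrial genes tested, and 0 of 6 ventricular genes were called, where 0.648% of all genes tested were higher and 0.35% lower.

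Of 14 heart transcription factor genes tested on day 7, 1 was called higher in NKX2-5+, NKX2-5 itself, and 0 lower (2 higher after median-ratio scaling). Of all genes tested, 2.03% were higher and 5.42% lower. The fractions were sorted on the NKX2-5 reporter, so its call reads the gate. TBX20 was next in size, at 141 FPKM in NKX2-5+ against 38.8 in NKX2-5-. TBX5, an activator of MYH6, was at 46.7 FPKM in NKX2-5+ against 21.5 in NKX2-5-, GATA4 at 51.2 against 47.1, MEF2C at 9.62 against 3.80 and MYOCD at 49.97 against 16.9. On day 14, 0 of 15 were called between aMHC+ and aMHC-, where 0.648% of all genes tested were higher and 0.35% lower. TBX5 was at 9.27 FPKM in aMHC+ against 3.62 in aMHC- and GATA4 at 47.6 against 53.2. In day 14 aMHC+ over day 7 NKX2-5+, 1 of 15 was higher and 3 were lower, where 7.68% of all genes tested were higher and 0.829% lower. ISL1 was at 17.4 against 1.69 FPKM, and TBX5 (9.27 against 46.7), TBX20 (11.1 against 141) and HAND1 (3.56 against 23.1) were lower.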

How the data were processed

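The authors deposited 1 table of FPKM values with a column per library; per the submitters' processing notes, Cufflinks and build hg19 were used, and none of the sources used here gives versions, aligner, annotation or the handling of reads with several matches. Of 23368 genes, 106 blank in all libraries were left out. Depth in reads is unknown beyond the lower limit in the labels, and a listed 0 can be a failed estimate. Groups came from the sample titles. In all, 7 comparisons were made on log2(FPKM + 1), with a size of 2 and a minimum of 5 FPKM as the rule, and no test. The members and lists were chosen with earlier results of these data known. Genes named besides members were the 5 most alike to each of 6 members and, from each list, up to 4 called genes per comparison or the 2 with the largest ratios, and any gene of a list of at most 10; TPM1, ACTC1, TNNT2, CKM, TBX5, GATA4, MEF2C and MYOCD were added in places after their values were seen. Alternatives were pseudocounts of 0.1 and 5, no minimum, 3 scalings (sums of 1000000, median ratio over 7780 genes, and equal sums without 1685 small RNA and histone genes) and leaving out genes at 0. Transcripts came from GENCODE 29 and sequences from RefSeq. Python 3.11.15, pandas 2.3.3, numpy 2.4.6 and matplotlib 3.10.9 were used.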

Additional observations from a re-analysis of the deposited data

Results flagged for a closer look

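Over the interval of day 7 to day 14, MYH6, MYL3 and MYL4 lay on opposite sides of 0 in the reporter-positive and the reporter-negative libraries. The log2 ratio of MYH6 was -0.63 in day 14 aMHC+ over day 7 NKX2-5+ and 1.62 in day 14 aMHC- over day 7 NKX2-5-, a difference of -2.26. For MYL3 the ratios were -0.24 and 2.55 (difference -2.79), and for MYL4 -0.53 and 1.11 (difference -1.64). MYH7B, under 5 FPKM in all of these libraries, was also on opposite sides, at -0.27 and 0.11. The signs of all 4 stayed opposite after median-ratio scaling. Beside them, fibroblast markers summed to 376 FPKM in day 14 aMHC+ against 64.8 in day 7 NKX2-5+, and hepatic endoderm markers to 3.30 in day 14 aMHC- against 385 in day 7 NKX2-5-, and their part was not tested. With 1 library per group the difference was not tested, and the fractions are not the same gate on both days, since aMHC- cells were sorted as NKX2-5+ and the day 7 negative cells were not.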

How the results depend on the processing

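No paired analysis was possible because each group has 1 library and the result comes from no test. Of the 7 counts of called members, each kept within 1.5 times its value without a minimum FPKM and after median-ratio scaling. With a pseudocount of 5, day 14 aMHC+ over aMHC- had 1 member called in place of 2. With a pseudocount of 0.1, day 3 CD13+/ROR2+ over CD13-/ROR2- had 2 in place of 1. Equal sums of 1000000 raise every value against the fixed pseudocount and minimum, and a few small RNA genes weigh on some of the sums. The counts were then 5 for day 14 aMHC+ over aMHC-, 4 for day 14 aMHC- over day 7 NKX2-5- and 3 for the day 3 pair. The 5 include MYL2 and MYH7B, which passed the minimum only through this rescaling. The 3 include MYL3, called lower in CD13+/ROR2+. Without small RNA and histone genes at equal sums, day 14 aMHC- over day 7 NKX2-5- had 0. Without genes at 0, day 14 aMHC+ over hESC had 2. No called member changed sign under any of these settings. Isoform shares and light to heavy chain ratios stayed within 1.5 times with a pseudocount of 1 or with MYH7B counted beside MYH7. Of 30 most alike genes, 3 were shared with Spearman's rho, 14 with a pseudocount of 0.1, 17 with median-ratio scaling and 0 without hESC and day 3. The cause of these changes was not tested. Few reads stand behind the MYL2 levels, the day 3 and hESC heavy chain levels and MYH7B in the reporter-negative libraries. The same holds for MYL3 on day 3 and for MYL4 and MYL7 in day 3 CD13-/ROR2-.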

Other observations

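Myosins outside the heart set were also read. Nonmuscle MYH9 and MYH10, which drive cell division and adhesion, were at 43.8 and 44.0 FPKM in day 14 aMHC+ and at 64.6 and 66.6 in aMHC-, and on day 7 at 10.4 and 13.6 in NKX2-5+ and at 40.0 and 45.2 in NKX2-5-. Smooth muscle MYH11 was at 12.2 FPKM in day 14 aMHC+ against 0.678 in day 7 NKX2-5+ (18.0-fold), and the smooth and nonmuscle light chain kinase gene MYLK at 12.9 against 0.663. The nonmuscle essential chain MYL6 was at 1533 FPKM in day 14 aMHC+ against 268 in day 7 NKX2-5+, and the regulatory chain MYL9 at 471 against 338. The 7 heavy chains of skeletal, extraocular and developing muscle, MYH1, MYH2, MYH3, MYH4, MYH8, MYH13 and MYH15, reached at most 0.33 FPKM, for MYH3 in day 14 aMHC+.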
